A study of Mus musculus with 6 samples.

Results

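The cytochrome P450, aldo-keto reductase, epoxide hydrolase, glutathione S-transferase, UDP-glucuronosyltransferase and cytosolic sulfotransferase families hold the enzymes that chemically modify drugs, toxins, steroids, bile acids and other lipids. Their genes were followed in the pancreas of E13.5 mouse embryos that lacked the homeobox transcription factor Prox1. Members were picked by a rule on gene symbols. They were all rows named Cyp followed by a number, letter and number, all Akr1 genes, the Ugt1a, Ugt2a, Ugt3a and Ugt2b genes, the alpha, mu, pi, theta, kappa and omega classes of Gst, all Sult genes and Ephx1 to Ephx4, except Cyp26a1, Cyp26b1 and Sult2b1. This gave 166 of the 23337 rows of the count files. Of these, 59 had no read in any library, 49 had reads but too few to be tested, and 58 were tested.

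Both groups were NMRI embryos. The control group was 3 pools from embryos labelled wildtype, and the mutant group was 3 pools from embryos described as Prox1-nullyzygous with the genotype Prox1 GFPCre/D. Each pool joined 5 to 6 pancreata of 1 genotype and gave 1 mRNA sequencing library. The sources do not state what the allele written D removes, nor the sex or litter of the embryos, and a whole dissected organ mixes epithelium, mesenchyme, vessels, nerve and blood. In such a sample, fewer cells of a type and less RNA per cell cannot be told apart.

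Cytochrome P450 enzymes add oxygen, aldo-keto reductases turn carbonyls into alcohols, and epoxide hydrolases open reactive epoxide rings. The transferases attach glutathione, glucuronic acid or sulfate, either to such products or directly to a substrate, which makes it easier to export. Most of these genes are known best from adult liver, intestine and kidney, and a smaller set makes steroid hormones in adrenal gland and gonad. The receptors AHR, PXR, CAR and FXR and the factor NRF2 are known to switch many of them on.

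Library totals ran from 16060424 to 17633867 gene-assigned reads, so that 1 CPM, the unit of expression used here (reads scaled to library size with TMM factors), stood for 15.9 to 17.5 reads. The members held 0.128% to 0.144% of the reads of a library. Prox1 itself had 1764, 1687 and 1824 reads in the 3 control pools against 1330, 1774 and 1602 in the mutants. The groups overlapped, and the log2 fold change of -0.17 (SE 0.0743) had an edgeR adjusted p of 0.235. The count of the whole gene therefore does not check the genotype, because it is not stated which part of the gene is lost. Almost no Xist reads were found in control pool 3 and mutant pool 1, so calls were also made without this pair.

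Changes between the groups were called from the edgeR quasi-likelihood test at an adjusted p under 0.05, adjusted over all 14687 genes tested. Across all of them 7.95% were called, 3.67% higher and 4.28% lower in the mutant pools. Among the 58 tested members 15 were called, which is 25.9%, with 4 higher and 11 lower. The mutant pools did not overlap the control pools for 23 members, which is 39.7%, beside 26.4% of all tested genes. The 4 higher members were the aldo-keto reductase gene Akr1cl, the steroid-making P450 gene Cyp11a1 and the glutathione transferase genes Gsta4 and Gstt3. The 11 lower members were Ugt2b34, Ugt2b35, Akr1c19, Akr1c12, Cyp2j5, Gstm1, Gstm3, Gstm7, Sult1d1, Ephx1 and Ephx2. Of these, Cyp2j5, Gstm3 and Sult1d1 reached the count needed for testing in the control pools alone. Their direction and lack of overlap were therefore set by that limit. The median log2 fold change of the tested members was -0.03, beside 0.00055 over all tested genes, with higher and lower members on either side of it. By family the median was -0.01 for Cyp, -0.02 for Akr1, 0.01 for Gst, -0.34 for Sult, -0.71 for Ugt and -0.79 for Ephx. The called members were spread over the 6 families as 2 of 21 tested for Cyp, 3 of 9 for Akr1, 2 of 3 for Ephx, 5 of 16 for Gst, 2 of 5 for Ugt and 1 of 4 for Sult.

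**Figure D1:**
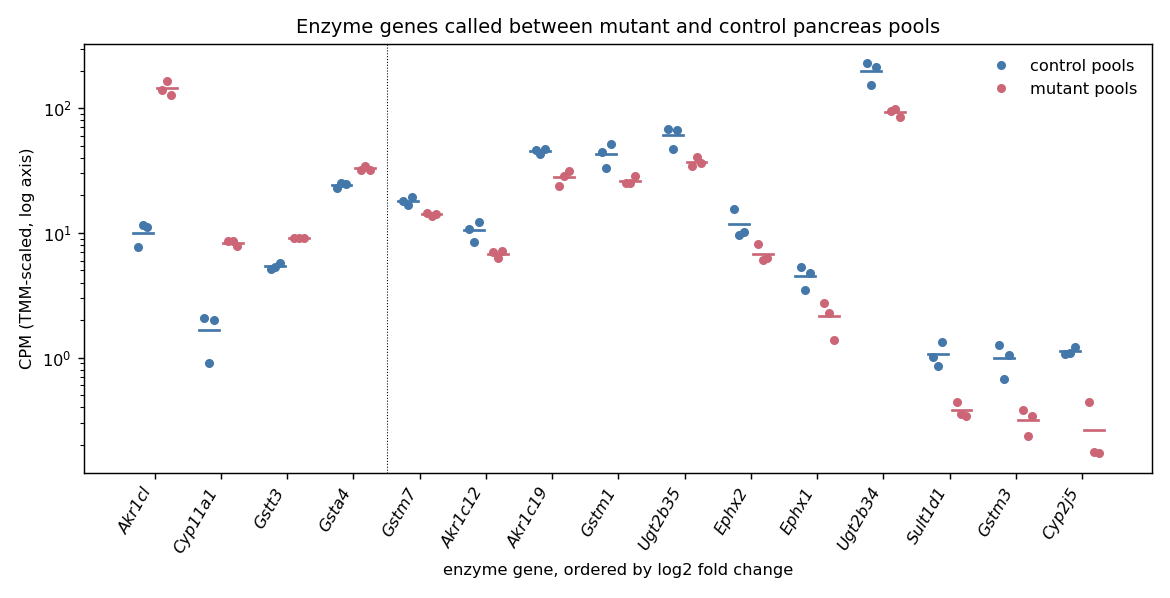
Expression of the 15 called enzyme genes in each pool, in CPM on a log axis, with controls and mutants as separate points and group means as lines. Akr1cl lies between 7.64 and 11.5 CPM in the control pools and between 127.8 and 166.5 CPM in the mutant pools, while most of the other genes differ by less than 3-fold.

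**Figure D2:**
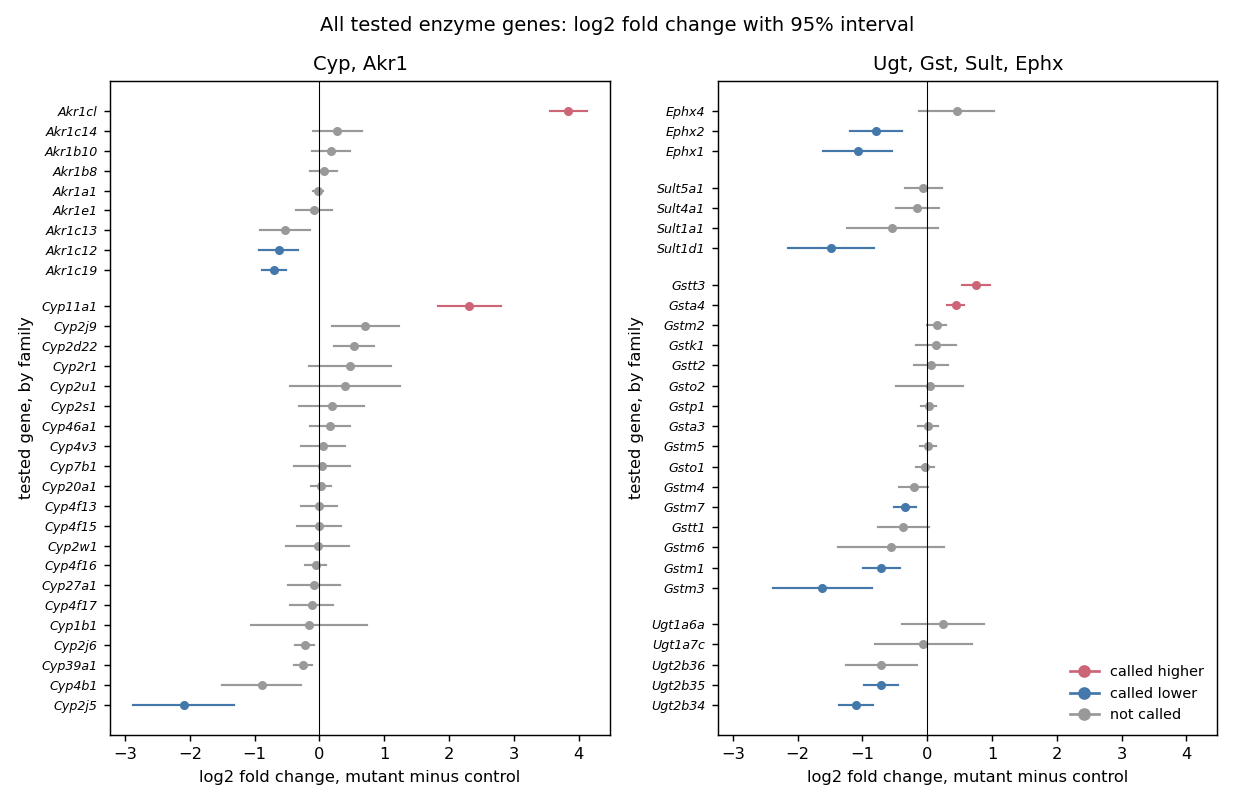
Log2 fold change, mutant minus control, of the 58 tested members, arranged by family, with 95% intervals as bars and colour for the call. Akr1cl and Cyp11a1 stand highest, and most of the uncalled members lie near 0.

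The 6 calls that held under all 12 other settings tried were those of Akr1cl, Cyp11a1, Gsta4, Gstt3, Ugt2b34 and Akr1c19. The number of higher members stayed at 4 or 5 when each pool was left out in turn. The number of lower members was 11 with all pools, and fell to 3, 5, 6, 3 and 4 on leaving out control pool 1, control pool 3 and mutant pools 1, 2 and 3, in that order. It was 14 on leaving out control pool 2. The share of all genes called moved in the same direction, for example to 4.24% without control pool 1 and 9.57% without control pool 2. Control pool 2 was the lowest control pool for 10 of the 11 lower members, the exception being Cyp2j5. It was also the lowest for 316 of the 628 genes called lower, which is 50.3%, and for 37.5% of all genes tested.

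RefSeq promoters, running from 250 bases before to 50 bases after a RefSeq start of the gene in GRCm38.p6, were found for 13 of the 15 called members, as 17 promoters. The promoters of Akr1cl, Akr1c19 and Ugt2b34 are printed because they belong to the member that rose most and to its relative and the glucuronosyltransferase that fell with the best supported changes. Capitals mark the core of the antioxidant response element, the letters bound by NRF2 and its partners, spelled TGACNNNGC and searched on both strands. In both sequences that hold it the core is read on the opposite strand. No match to any of the motifs searched is in the Ugt2b34 window.
Akr1cl, chr1:65032710-65033009, minus strand: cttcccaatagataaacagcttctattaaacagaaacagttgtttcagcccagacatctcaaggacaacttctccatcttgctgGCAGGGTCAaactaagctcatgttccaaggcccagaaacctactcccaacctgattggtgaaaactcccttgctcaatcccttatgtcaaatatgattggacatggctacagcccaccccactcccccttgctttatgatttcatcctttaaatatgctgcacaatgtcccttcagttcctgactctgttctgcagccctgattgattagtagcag
Akr1c19, chr13:4233490-4233789, plus strand: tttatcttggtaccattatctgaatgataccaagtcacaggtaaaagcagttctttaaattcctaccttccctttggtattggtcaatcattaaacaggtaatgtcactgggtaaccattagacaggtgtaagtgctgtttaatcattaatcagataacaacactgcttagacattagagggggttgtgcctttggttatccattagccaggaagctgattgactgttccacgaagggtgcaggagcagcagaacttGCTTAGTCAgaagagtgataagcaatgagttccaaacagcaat
Ugt2b34, chr5:86906888-86907187, minus strand: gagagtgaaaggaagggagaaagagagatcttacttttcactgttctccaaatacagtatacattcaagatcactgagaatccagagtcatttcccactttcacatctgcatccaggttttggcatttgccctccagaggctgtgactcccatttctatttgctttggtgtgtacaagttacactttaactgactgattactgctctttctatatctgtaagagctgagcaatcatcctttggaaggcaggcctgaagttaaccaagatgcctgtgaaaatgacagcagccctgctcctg

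The element started at base -166 of the Akr1cl promoter and at base 8 of the Akr1c19 promoter, counted from the RefSeq start of each window, and Gstm7 also had 1. For Akr1c19 that start lies inside the span that the annotation used for positions gives the gene, chr13:4228700-4252843. It was thus present in 3 of the 17 promoters of called members (17.6%), beside 12.4% of all 32851 promoters and 6 of 58 promoters of tested members (10.3%). Of its 3 carriers Akr1cl was higher and Akr1c19 and Gstm7 were lower in the mutant pools. The AHR core GCGTG was present in 3 of the 17 promoters, those of Gstm1 and Sult1d1, beside 32.4% of all promoters. The Gstm1 windows overlap and hold the same match, which is thus counted more than once. The HNF1 half-site GTTAAT was present in 1 of the 17, that of Sult1d1, beside 7.10% of all promoters. An antioxidant core that ends in GC can run on into GCGTG, so these 2 motifs can overlap. A match is a run of letters and does not show that a factor binds there.

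Akr1cl showed the largest change of the families. The gene encodes a protein related to the AKR1C hydroxysteroid dehydrogenases and lies at chr1:65012689-65032759 on the minus strand, apart from the Akr1c cluster on chromosome 13. It had 7.64, 11.5 and 11.0 CPM in the control pools and 139.1, 166.5 and 127.8 CPM in the mutant pools. Every mutant pool was far above every control pool, with means of 10.1 ± 2.11 and 144.5 ± 19.9 CPM (SD, n = 3 each). The log2 fold change was 3.84 (SE 0.147, edgeR adjusted p = 6.97e-06), a 14.3-fold rise. Among all tested genes it ranked 2 by p and 11 by the size of the rise. Of the 50-base stretches of its transcript, 99.6% occurred in no other gene, so reads from a close copy are few, although the gene overlaps Gm8550 on the opposite strand and the sources do not state whether counting used the strand. Of its tested neighbours within 200 kb, Idh1, which encodes cytosolic isocitrate dehydrogenase, was also higher, with a log2 fold change of 0.70 (SE 0.0598, edgeR adjusted p = 0.000388), and Plekhm3, D630023F18Rik and Pikfyve were not called.

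No other tested Akr1 gene was called higher. Akr1c19 encodes a member of the AKR1C hydroxysteroid dehydrogenases. It had 45.9, 42.7 and 47.5 CPM in the control pools and 23.7, 28.6 and 31.1 CPM in the mutant pools. All mutant pools lay below all control pools, and the log2 fold change was -0.70 (SE 0.0964, edgeR adjusted p = 0.00321). Akr1c12, a close relative, had 10.7, 8.47 and 12.3 CPM against 7.04, 6.24 and 7.09 CPM, with a log2 fold change of -0.63 (SE 0.153, edgeR adjusted p = 0.0382). Its groups did not overlap, but omitting control pool 1 or 3 ended the call (adjusted p = 0.115 and 0.111), as did omitting mutant pool 1, 2 or 3 (0.0845, 0.135 and 0.0875). Akr1c13 shared 28.6% of its 50-base stretches with Akr1c12, so reads of the pair can be split between them. It had 9.02, 8.41 and 14.3 CPM against 7.23, 7.48 and 7.15 CPM, and its log2 fold change of -0.54 was not called (adjusted p = 0.150). Akr1c14, which encodes the 3-alpha-hydroxysteroid dehydrogenase, had a log2 fold change of 0.28 (adjusted p = 0.482) and Akr1e1, at the end of the same cluster, one of -0.09 (adjusted p = 0.799). The cluster therefore held 2 lower and 3 uncalled tested members, and its tested neighbours Net1 and Marcksl1-ps4, the latter inside the span of Akr1c19, were not called either.

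These opposed changes altered the make-up of the group. The summed level of Akr1cl and the Akr1c genes was 78.8 ± 7.50 CPM in the controls and 189.1 ± 19.6 CPM in the mutants. Akr1cl held 12.8% of that sum in the controls and 76.4% in the mutants. Without Akr1cl the sum was 68.8 ± 7.27 CPM in the controls and 44.7 ± 3.59 CPM in the mutants. Akr1a1, the aldehyde reductase that is the most abundant member in both groups, had a log2 fold change of -0.02 (95% interval -0.10 to 0.06, adjusted p = 0.879) at 467.9 and 462.5 CPM. Akr1b8 and Akr1b10, aldose reductase-like enzymes, had log2 fold changes of 0.07 and 0.18 and were not called. Akr1b3, the aldose reductase gene, was listed at 0 in all libraries. Only 13.8% of its 50-base stretches were its own, and 82.4% were shared with Gm38056.

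**Figure D3:**
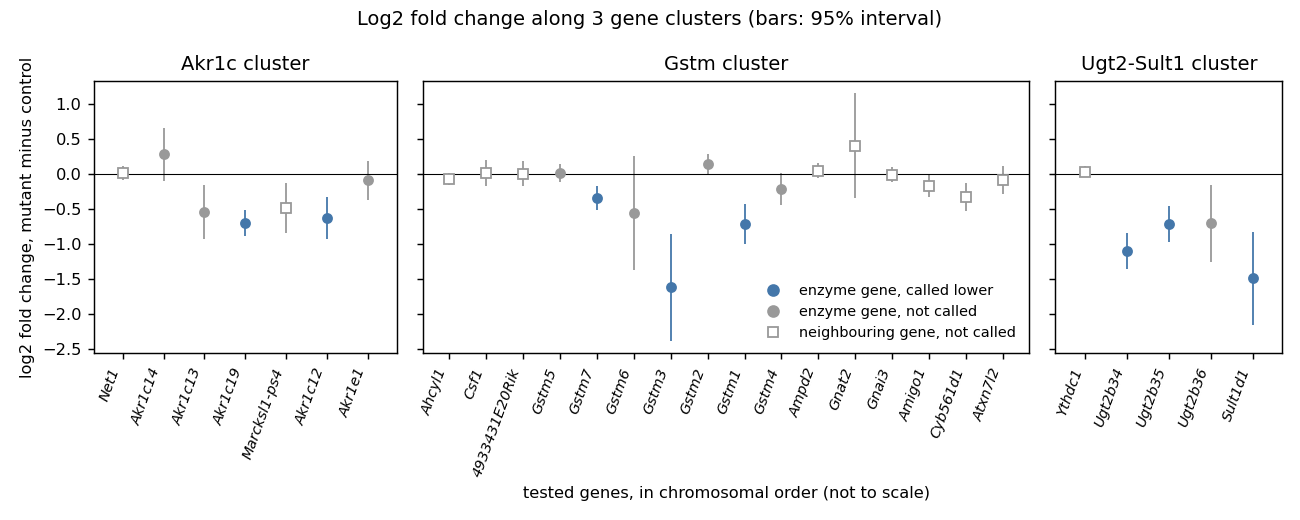
Log2 fold change, mutant minus control, with 95% intervals, of the tested genes along the Akr1c, Gstm and Ugt2-Sult1 clusters in chromosomal order. Filled circles are enzyme genes and open squares are neighbouring genes. All called genes in these clusters are lower, a direction that for Gstm3 and Sult1d1 was set by the testing limit. Uncalled enzyme genes lie among the called ones in each cluster.

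Among the cytochrome P450 genes only 2 of 21 tested members were called, 9.52%, which is near the 7.95% of all genes. Cyp11a1, which encodes the side-chain cleavage enzyme that makes pregnenolone from cholesterol, lies at chr9:58006411-58027023. It had 2.09, 0.914 and 1.99 CPM in the control pools and 8.55, 8.54 and 7.90 CPM in the mutant pools. The mutant pools were close together and all above the controls, with a log2 fold change of 2.32 (SE 0.248, edgeR adjusted p = 0.00098), a 4.98-fold rise. No other tested gene within 200 kb was called. The longest coding transcript of Cyp11a1 had no 50-base stretch in common with another gene, although the gene overlaps Gm17322 on the same strand.

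The P450 genes of the later steps toward steroid hormones were read at a very low level or not at all. Cyp17a1, for the hydroxylase and lyase step toward androgens, had 1 read over all 6 libraries, and Cyp21a1, for the adrenal hydroxylase, had 2. Cyp11b1, Cyp11b2 and the aromatase gene Cyp19a1 were listed at 0. Star, the cholesterol carrier that feeds CYP11A1 in mitochondria, had 1.19, 1.22 and 0.701 CPM in the control pools and 1.38, 1.24 and 1.60 CPM in the mutant pools, and its log2 fold change of 0.44 was not called (adjusted p = 0.445). Of the genes for the 3-beta-hydroxysteroid dehydrogenases that follow CYP11A1, Hsd3b6 was well read, with 6.15, 12.1 and 4.68 CPM against 9.05, 8.42 and 11.3 CPM. Its groups overlapped, and its log2 fold change of 0.33 was not called (adjusted p = 0.617). Hsd3b1, for the same step, had 6, 6 and 3 reads against 8, 11 and 7 and was not tested. Srd5a1, Hsd17b7 and Hsd17b12, which act on later steroids and other lipids, had control means of 17.8, 37.1 and 85.2 CPM and were not called, with log2 fold changes of -0.26, 0.14 and 0.14. Of the adrenal and gonad marker list, 4 of 9 genes were tested and none was called by edgeR. The summed level of the list ran from 79.4 to 98.9 CPM in the controls and from 95.1 to 109.9 CPM in the mutants. Gata4 alone held 62.6% of that sum in the controls and 69.0% in the mutants, and Fdx1 had means of 20.9 and 19.1 CPM. The defining gene of the list, Nr5a1, had 8, 20 and 6 reads against 16, 10 and 6, and Mc2r had 0, 0 and 0 against 2, 1 and 0.

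Cyp2j5, for an epoxygenase of arachidonic acid, was the P450 gene called lower. It had 1.07, 1.10 and 1.23 CPM in the control pools and 0.440, 0.177 and 0.172 CPM in the mutant pools, or 18, 18 and 21 reads against 7, 3 and 3. Only the control pools reached the count needed for testing, so the lack of overlap between the groups followed from that limit. The log2 fold change was -2.10 (SE 0.398, edgeR adjusted p = 0.0137). Omitting mutant pool 2 or 3 ended the call (adjusted p = 0.064 and 0.0575). Its neighbours of the same subfamily went separate ways in size and sign and were not called, with log2 fold changes of -0.23 for Cyp2j6 (adjusted p = 0.112) and 0.71 for Cyp2j9 (adjusted p = 0.157). The groups of these Cyp2j genes did not overlap either.

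The most abundant P450 genes of this tissue were Cyp20a1, an orphan enzyme, Cyp39a1, an oxysterol hydroxylase, and Cyp2j6. Cyp20a1 had means of 33.4 and 33.8 CPM and a log2 fold change of 0.02 (95% interval -0.14 to 0.17). Cyp39a1 had 30.5, 26.9 and 28.3 CPM against 24.8, 23.6 and 23.9 CPM, with no overlap and a log2 fold change of -0.25 (SE 0.0702). Its adjusted p of 0.0672 missed the threshold, which it passed without control pool 2 (0.0425). Cyp2d22, of the drug-oxidising CYP2D subfamily, had 7.46, 7.25 and 6.02 CPM against 11.7, 10.3 and 8.07 CPM. It had a log2 fold change of 0.53 (adjusted p = 0.0832), which passed without mutant pool 3 (0.0412). Cyp4b1, a fatty acid and xenobiotic hydroxylase, had a log2 fold change of -0.89 (adjusted p = 0.130), which passed without control pool 2 (0.0447). The 4 tested Cyp4f genes, for hydroxylases of leukotrienes and fatty acids, had log2 fold changes from -0.12 to -0.01.

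Other P450 genes of known sterol or xenobiotic roles were not called. Cyp7b1 and Cyp27a1, of the alternative bile acid pathway, had log2 fold changes of 0.04 and -0.09, with adjusted p of 0.945 and 0.876. Cyp1b1, an AHR target, ranged from 1.05 to 4.08 CPM in the controls and from 1.51 to 2.71 CPM in the mutants, with a log2 fold change of -0.16 and a 95% interval from -1.06 to 0.74. For Cyp2s1 the change was 0.19 with an interval from -0.31 to 0.70. The Cyp2c and Cyp3a subfamilies, which oxidise many drugs in liver, were almost unread. All 15 Cyp2c and 7 Cyp3a genes were below the testing limit, and 11 and 4 of them had no read. Cyp7a1, the rate-limiting enzyme of classical bile acid synthesis, was listed at 0, and Cyp8b1 had 3 reads in all.

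Both epoxide hydrolase genes of known detoxifying function were lower. Ephx1, for the microsomal enzyme, had 5.31, 3.47 and 4.73 CPM in the control pools and 2.77, 2.30 and 1.37 CPM in the mutant pools, and the groups did not overlap. Its log2 fold change was -1.07 (SE 0.273, edgeR adjusted p = 0.0461). Ephx2, for the soluble enzyme that hydrolyses fatty acid epoxides, had 15.6, 9.68 and 10.2 CPM against 8.17, 6.07 and 6.24 CPM, again without overlap. Its log2 fold change was -0.79 (SE 0.205, edgeR adjusted p = 0.0490). Both calls were close to the threshold. Both ended on omitting control pool 1, control pool 3, mutant pool 2 or mutant pool 3. In that order, the adjusted p was then 0.151, 0.112, 0.114 and 0.105 for Ephx1, and 0.122, 0.0572, 0.164 and 0.146 for Ephx2. Ephx4 had a log2 fold change of 0.46 and was not called (adjusted p = 0.441). Ephx1 lies at chr1:180976210-181020904, within 10 Mb of Prox1. Of the 88 tested genes in that window 11 were called (12.5%, beside 7.95% of all genes), 6 higher and 5 lower. Among them were the Ephx1 neighbours Tmem63a, lower at -0.48, and Cnih4, higher at 0.22 on the log2 scale. The Cnih4 call ended on omitting any 1 pool, with adjusted p of 0.0608 to 0.145. The part of linkage to Prox1 in the result was not tested.

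Calls among the 16 tested glutathione transferase genes went both ways, 2 up and 3 down. Of the 7 tested mu class genes, which lie side by side on chromosome 3, 3 were lower (42.9%, beside 4.28% of all tested genes). None was called higher by edgeR. Of the lower ones, Gstm3 had its direction set by the count needed for testing. Gstm1 had 44.3, 33.0 and 51.5 CPM in the control pools and 25.3, 25.0 and 28.5 CPM in the mutant pools, without overlap. Its log2 fold change was -0.71 (SE 0.145, edgeR adjusted p = 0.0192). Omitting control pool 1 ended the call (adjusted p = 0.0731), as did omitting mutant pool 1 or 2 (0.0613 and 0.0788). Gstm7 had 17.9, 16.8 and 19.2 CPM against 14.5, 13.6 and 14.2 CPM, with a log2 fold change of -0.35 (SE 0.0871, edgeR adjusted p = 0.0442). Gstm3 was scarce, with 1.25, 0.670 and 1.05 CPM against 0.377, 0.236 and 0.343 CPM, and its log2 fold change was -1.62 (SE 0.390, edgeR adjusted p = 0.0373). Neither gene had overlapping groups, which for Gstm3 followed from the count needed for testing, reached by the control pools alone. Both calls were lost with DESeq2, at adjusted p of 0.0992 for Gstm7 and 0.133 for Gstm3. Both were also lost without each pool other than control pool 2. In the order control pools 1 and 3 and mutant pools 1, 2 and 3, the adjusted p was then 0.116, 0.133, 0.0886, 0.147 and 0.109 for Gstm7, and 0.126, 0.104, 0.0806, 0.133 and 0.0984 for Gstm3.

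Between these genes lay mu class members that were not called. Gstm2, flanked by Gstm3 and Gstm1, had 17.0, 17.3 and 17.0 CPM against 18.9, 18.6 and 19.3 CPM, and its log2 fold change of 0.15 (adjusted p = 0.306) had the opposite sign. Gstm5, the most abundant mu class gene, had means of 52.8 and 53.3 CPM and a log2 fold change of 0.01 (95% interval -0.11 to 0.14). Gstm6 and Gstm4 had log2 fold changes of -0.56 and -0.21. No tested gene within 200 kb of the cluster was called. Close copies limit these values, since 76.9% of the 50-base stretches of Gstm1 and 71.2% of those of Gstm3 were their own.

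The glutathione transferase genes called higher were 1 of 2 tested alpha class genes and 1 of 3 tested theta class genes. Gsta4, which clears the lipid peroxidation product 4-hydroxynonenal, had 23.0, 25.0 and 24.8 CPM in the control pools and 32.2, 34.2 and 32.2 CPM in the mutant pools. The groups were tight and did not overlap, with a log2 fold change of 0.44 (SE 0.0657, edgeR adjusted p = 0.00483). Gstt3 had 5.13, 5.36 and 5.73 CPM against 9.12, 9.07 and 9.15 CPM, also without overlap, and a log2 fold change of 0.75 (SE 0.114, edgeR adjusted p = 0.00495). It overlaps Gm20441 on the same strand, with which it shares 26.0% of its 50-base stretches. Its neighbour Gstt1 had a log2 fold change of -0.37 (adjusted p = 0.347). The abundant Gsta3, Gsto1 and Gstp1 had log2 fold changes of 0.02, -0.03 and 0.02, with 95% intervals that reached no further than 0.17 in size. Most stretches of Gstp1 were shared, with 37.7% of its own. The summed level of all Gst genes was 332.7 ± 19.4 CPM in the controls and 323.7 ± 3.54 CPM in the mutants.

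The glucuronosyltransferases had the largest drop in summed level of the 6 families, from 265.5 ± 53.1 CPM in the controls to 135.0 ± 9.09 CPM in the mutants. Ugt2b34 held 74.7% and 68.6% of these sums. It had 228.0, 153.7 and 213.1 CPM in the control pools and 94.95, 97.7 and 85.0 CPM in the mutant pools. Control pool 2 was the lowest control and still above all mutant pools. The log2 fold change was -1.10 (SE 0.131, edgeR adjusted p = 0.00153), so that the controls were 2.14-fold higher. Ugt2b35, the next gene of the family by level, had 67.7, 47.1 and 67.0 CPM against 34.2, 40.4 and 36.0 CPM, without overlap, and a log2 fold change of -0.72 (SE 0.134, edgeR adjusted p = 0.0128). That call ended on omitting control pool 1 (adjusted p = 0.0565) and on omitting the pair of pools with almost no Xist (0.0716). Ugt2b36 had 4.54, 2.19 and 3.80 CPM against 2.26, 2.42 and 1.77 CPM. Its groups overlapped through control pool 2, and the log2 fold change of -0.71 was not called (adjusted p = 0.185), although it was without control pool 2 (0.0306). UGT2B enzymes are known for conjugating steroids, bile acids and drugs. The Ugt1a genes, which share exons for the common end of the protein, were scarce. Ugt1a6a and Ugt1a7c had 1.27 and 1.03 CPM in the controls and log2 fold changes of 0.24 and -0.06. None of the 50-base stretches of Ugt1a6a was its own, so its count is uncertain.

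The Ugt2b genes share a stretch of chromosome 5 with sulfotransferase genes. Sult1d1, for a sulfotransferase of catecholamines, had 1.01, 0.853 and 1.34 CPM in the control pools and 0.440, 0.353 and 0.343 CPM in the mutant pools, or 17, 14 and 23 reads against 7, 6 and 6. Again only the control pools reached the count needed for testing, so the lack of overlap followed from that limit. The log2 fold change was -1.49 (SE 0.339, edgeR adjusted p = 0.0301). The call was lost with DESeq2 (adjusted p = 0.143) and on omitting any single pool other than control pool 2. The adjusted p was then 0.0796 and 0.108 for control pools 1 and 3, and 0.0673, 0.106 and 0.100 for the mutant pools in order. The 3 tested Ugt2b genes of this stretch, Ugt2b34, Ugt2b35 and the uncalled Ugt2b36, had negative log2 fold changes. The direction of Sult1d1 was set by the testing limit, so it adds nothing to that pattern. Ythdc1, the tested gene beside them, was at 0.03. Sult1a1, for a phenol sulfotransferase, had a log2 fold change of -0.54 with a 95% interval from -1.24 to 0.17. Sult4a1 and Sult5a1 had log2 fold changes of -0.15 and -0.06 and were not called. Sult1c2 had 10, 2 and 9 reads against 6, 2 and 3 and was not tested. None of the 7 Sult2a genes, for sulfotransferases of steroids and bile acids, had a read. For reads that match a single gene, this allows up to 3 reads per gene over the libraries. The share of 50-base stretches that were a gene's own ran from 37.9% for Sult2a2 to 100% for Sult2a7, so reads of close copies can be missed.

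**Figure D4:**
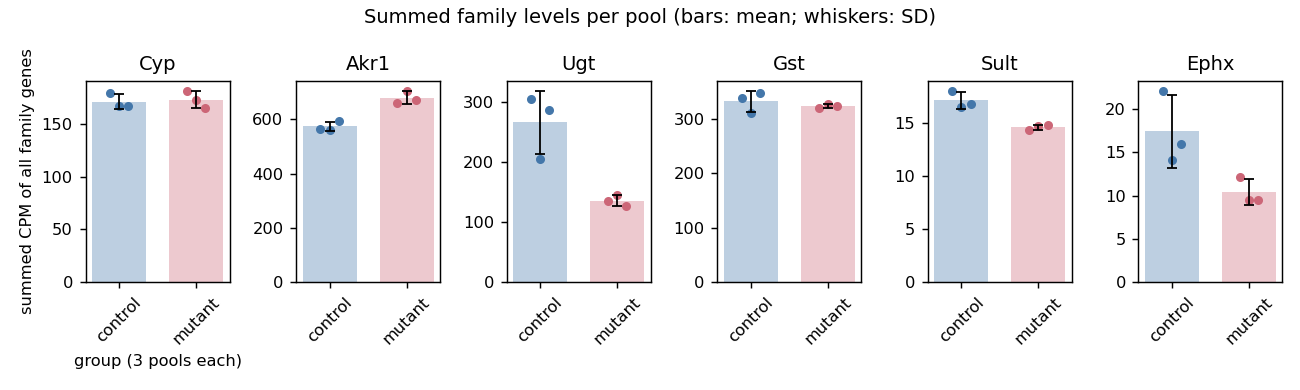
Summed CPM of each enzyme family in each pool, with the group mean and SD. The Ugt sum lies between 205.1 and 304.7 CPM in the controls and between 126.3 and 144.5 CPM in the mutants, and the Akr1 sum is higher in the mutants through Akr1cl.

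Compared per kilobase of exon, the order of levels at the top of the families differed between the groups. Akr1a1 was first in both, at 170.2 CPM per kb in the controls and 168.2 CPM per kb in the mutants. Ugt2b34 was second in the controls at 46.0 CPM per kb and the sixth in the mutants at 21.5 CPM per kb. Akr1cl stood at rank 27 in the controls at 2.39 CPM per kb and at rank 3 in the mutants at 34.3 CPM per kb. Gstm5 and Gsto1, which were not called, stood at 41.3 and 25.8 CPM per kb in the controls. Over all 166 members the summed level was 1378.6 ± 87.9 CPM in the controls and 1336.7 ± 33.1 CPM in the mutants. By family, the sums went from 171.7 ± 7.27 to 173.6 ± 8.15 CPM for Cyp, from 574.2 ± 17.5 to 679.5 ± 24.2 CPM for Akr1, from 17.4 ± 4.19 to 10.4 ± 1.55 CPM for Ephx and from 17.1 ± 0.814 to 14.6 ± 0.259 CPM for Sult. With Akr1cl left out, the sums over all members were 1368.6 ± 89.2 and 1192.3 ± 13.8 CPM.

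The regulators and partners of these enzymes were read from 4 further gene lists. Of 12 tested receptors and partners 1 was called (8.33%, near the 7.95% of all genes), with a list median of 0.07. It was Nr1h4, the bile acid receptor FXR, which had 1.1, 0.79 and 1.3 CPM in the control pools and 3.58, 3.59 and 3.38 CPM in the mutant pools. All mutant pools were higher, and the log2 fold change was 1.68 (SE 0.227, edgeR adjusted p = 0.00301). The AHR gene Ahr, the NRF2 gene Nfe2l2 and Por, which passes electrons to the P450 enzymes, had log2 fold changes of 0.15, 0.21 and -0.04 and were not called. Rxra, the partner of the nuclear receptors, was at -0.25 with an adjusted p of 0.0513, and it was called on omitting control pool 3 (0.0288) and by DESeq2 (0.0145). The PXR gene Nr1i2 had 1, 3 and 7 reads in the 3 control pools against none in the mutants, and the CAR gene Nr1i3 had 1 read in each control pool, too few to test.

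Of 17 genes for glutathione supply and NRF2 targets, 2 were higher and 1 was lower (17.6% called, beside 7.95% of all genes), with a median of -0.06. Gclc, the catalytic subunit for glutathione synthesis, rose by 0.26 on the log2 scale (adjusted p = 0.0381) and Slc7a11, the cystine importer, by 0.82 (adjusted p = 0.0319), while Mgst1, the microsomal glutathione transferase, was at -0.49 (adjusted p = 0.0462). Of 18 genes for cofactors and transport, 2 were higher and 1 was lower (16.7% called), with a median of 0.02. Papss2, which makes the sulfate donor PAPS, had 25.3, 22.2 and 24.5 CPM against 44.6, 45.7 and 38.9 CPM, without overlap, and a log2 fold change of 0.84 (SE 0.0827, edgeR adjusted p = 0.000674). Its paralog Papss1, the more abundant of the pair also per kilobase of exon, was at -0.16 (adjusted p = 0.0482), and the prostaglandin transporter Slco2a1 was at 0.71 (adjusted p = 0.000754). Of 14 tested steroid enzymes outside the families only Hsd3b7, of bile acid synthesis, was called, at -0.35 (adjusted p = 0.0343), and the median was -0.06. That is 7.14% of the tested list, near the share of all genes. The changes of Gclc, Slc7a11, Mgst1, Papss1 and Hsd3b7 rested on all pools together. Omitting control pool 1, control pool 3 or any mutant pool ended each of these 5 calls, with adjusted p of up to 0.145 for Gclc, 0.121 for Slc7a11, 0.137 for Mgst1, 0.157 for Papss1 and 0.113 for Hsd3b7. Omitting control pool 2 also ended those of Slc7a11 (0.0593) and Hsd3b7 (0.0565).

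**Figure D5:**
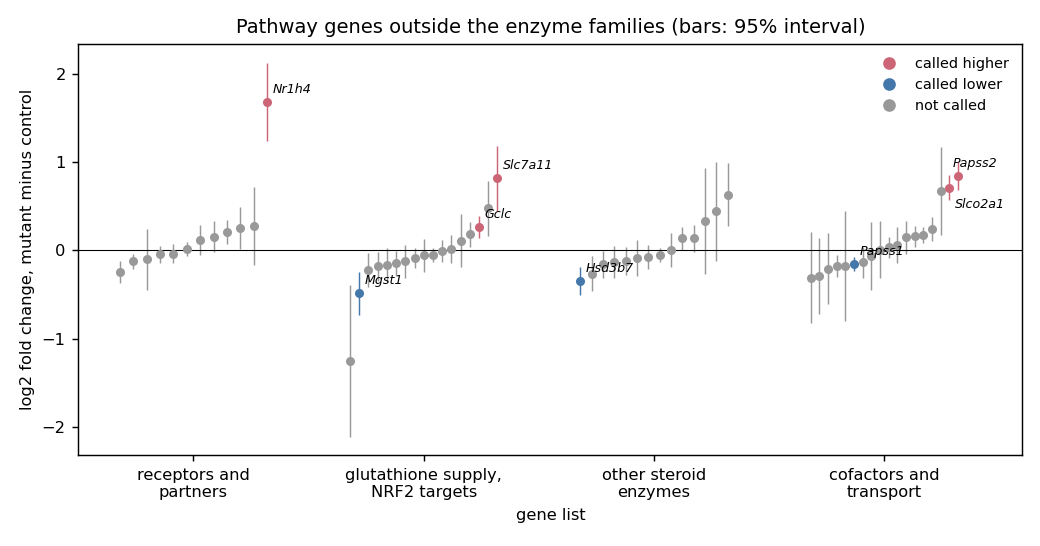
Log2 fold change, mutant minus control, with 95% intervals, of the tested genes in 4 lists of regulators, glutathione supply, other steroid enzymes and cofactors with transport. Nr1h4 is the highest called gene at 1.68 and Mgst1 the lowest called gene at -0.49.

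Markers of several cell types also differed between the groups, in both directions. Across all tested genes 3.67% were called higher and 4.28% lower. Of 11 tested hepatocyte markers 8 were lower and none was called higher by edgeR, with a median log2 fold change of -1.06. Their summed level ran from 778.4 to 1011.6 CPM in the controls and from 378.4 to 445.7 CPM in the mutants. The ratio was 0.484, beside 0.502 for the summed Ugt2b genes, 0.596 for endocrine and 1.22 for acinar markers. In control pools 1, 2 and 3 the hepatocyte sums were 778.4, 790.4 and 1011.6 CPM. The Ugt2b sums there were 300.8, 203.3 and 284.2 CPM. Ttr, which islet cells are also known to express, held 35.5% of the hepatocyte sum in the controls. The defining liver gene Alb had 71, 73 and 46 reads in the 3 control pools against 7, 10 and 4 in the mutants, and Apoh had 1, 1 and 1 against 2, 1 and 0. Scaled to library size, only the control pools of Alb, which is among the 8 lower markers, reached the count needed for testing. The direction and lack of overlap of Alb were therefore set by that limit. Endocrine markers were lower for 8 of 10 tested genes, with sums from 1704.7 to 2215.0 CPM in the controls and from 1122.8 to 1194.8 CPM in the mutants. Neuron and neural crest markers were lower for 5 of 10. Acinar markers were called higher for 3 and lower for 1 of 11, and trunk and duct markers higher for 2 and lower for 1 of 10. Higher calls were also made for 4 of 10 macrophage and neutrophil markers (the neutrophil granule genes Mpo, Elane, Ctsg and Prtn3), 4 of 9 erythroid, 2 of 10 mesenchyme, 1 of 8 endothelium and 1 of 4 gut markers. The gut marker called higher, Barx1, is also 1 of the 2 mesenchyme markers. The gut markers Vil1 and Sox2 were not called, at log2 fold changes of -0.88 and -2.35 (adjusted p = 0.0747 and 0.155), with all mutant pools below the controls and with control pool 2 far above the others for Sox2 (0.716, 5.73 and 0.701 CPM). Control pools 1 and 3 of Sox2 lay close to the count needed for testing, so its lack of overlap may follow from that limit. None of 6 proliferation markers was called. The part of these cell types in the enzyme results was not tested.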

How the data were processed

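Gene counts came from 3 control and 3 mutant libraries, 1 per pool of pancreata. Each deposited file lists whole-number read counts per gene symbol. Per the submitters' processing notes, cutadapt 1.13, STAR, HTSeq 0.6.1p1 and DESeq2 were used with build mm10. The aligner version, annotation and strand setting were not given in the sources used here. The deposited counts were tested with edgeR 4.0.16 in R 4.3.3, using filterByExpr with a minimum count of 10, TMM scaling, the quasi-likelihood F test and Benjamini-Hochberg adjustment over 14687 genes, with common biological variation of 8.19%. The SE was taken as |log2 fold change| divided by the root of the F statistic, with normal 95% intervals. The F test allows for the small number of pools and these intervals do not, so they are too narrow. That of Gstm2, for example, ran from 0.0025 to 0.289 at an unadjusted edgeR p of 0.0777.

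Alternatives were DESeq2 1.42.0 size factors, total-count scaling, no filter, the DESeq2 Wald test, a replicate block, each library left out in turn, and, chosen after seeing the data, both pools with almost no Xist left out. Pools were told apart beyond sampling noise in every pair. P-values set the difference between the groups against the spread between these pools.

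Members, gene lists and the rule for named genes were chosen with earlier results of these data known. Named were all called members, the 3 most abundant of each family, the 6 uncalled members with the largest changes among those whose average log2 CPM reached 0, plus a fixed set. The extraction reagent is described in 2 ways in the labels. Positions, lengths and the uniqueness of 50-base stretches came from the mouse reference annotation of GRCm38, which matched 165 of 166 members.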

Additional observations from a re-analysis of the deposited data

How the results depend on the processing

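Called enzyme genes numbered 4 higher and 11 lower. The higher count ranged from 4 to 5 over all 12 alternatives. The lower count was 11 with DESeq2 size factors, 12 with total-count scaling, 10 without the filter, 8 with the DESeq2 test and 4 without both pools with almost no Xist, and it ranged from 3 to 14 when each library was left out. Over all genes, 539 were higher and 628 lower, 463 and 717 with total-count scaling (39.2% of calls higher instead of 46.2%), and 315 and 350 without both pools with almost no Xist. Leaving out each library gave 282 to 696 higher and 343 to 725 lower, and without mutant pool 3 the higher share was 55.8%. Of the enzyme and pathway genes named in the text whose values were recomputed, no called log2 fold change reversed in sign under the 12 alternatives. A call lost on leaving out a library comes with fewer samples, and the cause was not tested further.

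The replicate block gave 5 higher and 9 lower enzyme genes, and 576 higher and 562 lower over all genes. It added Cyp2d22 and dropped Gstm7 and Sult1d1. Deviations of same-numbered pools correlated at 0.138, 0.101 and -0.0497, so the numbers were not taken as pairs.

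Over the 12 alternatives, the adjusted p ranged from 0.00886 to 0.150 for Akr1c12, 0.0115 to 0.064 for Cyp2j5, 0.0148 to 0.151 for Ephx1, 0.00533 to 0.164 for Ephx2, 1.83e-05 to 0.0788 for Gstm1, 0.0214 to 0.145 for Gstm3, 0.0326 to 0.18 for Gstm7, 0.028 to 0.152 for Sult1d1 and 8.73e-07 to 0.0716 for Ugt2b35. For uncalled genes it ranged from 0.0425 to 0.219 for Cyp39a1, 0.0381 to 0.396 for Cyp2d22, 0.0447 to 0.444 for Cyp4b1, 0.0306 to 0.471 for Ugt2b36 and 0.0145 to 0.181 for Rxra. Its highest value was 5.55e-05 for Akr1cl, 0.00691 for Cyp11a1, 0.00991 for Ugt2b34, 0.0180 for Akr1c19, 0.0276 for Gsta4 and 0.0257 for Gstt3.

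The 49 members with reads that were not tested had at most 54 reads over the 6 libraries, a depth at which a difference between groups was not tested.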
